A study of Mus musculus with 2 samples.

Results

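Ribosome biogenesis genes and Myc, 31 of the 33696 genes in the count table, were followed across the cell classes of 2 single-cell RNA libraries from mouse mammary tumors. The members are a list of named genes that holds the transcription factor Myc, 2 subunits of RNA polymerase I, 8 factors of the small-subunit processome, 3 box C/D and 4 box H/ACA snoRNP proteins, 9 large-subunit assembly factors and 4 other nucleolar proteins. All 31 were found in both libraries. PyMT-M and PyMT-N are cell lines derived from MMTV-PyMT tumors, in which a mammary tumor virus promoter drives the polyoma middle T antigen in mammary epithelium, and the study classes their tumors as macrophage-rich (High-MAC) and macrophage-poor (Low-MAC). Each line was injected into the mammary fat pad of female C57BL/6 mice aged 6 to 8 weeks. Cells of 3 tumors per line were pooled into 1 library after CD45+ and Ter119+ cells had been removed, cells bound by CD31 and CD144 antibodies had been pulled out on beads, and CD31+ CD144+ cells had been sorted. Condition, cell line and library therefore cannot be told apart, no difference between PyMT-M and PyMT-N has a replicate check, and no test was run.

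Myc is a transcription factor known for driving growth, and genes for ribosome assembly are among its best known targets. RNA polymerase I makes the long precursor of ribosomal RNA in the nucleolus. The small-subunit processome and the box C/D snoRNPs fold, cut and methylate that precursor, the box H/ACA snoRNPs convert uridines in it to pseudouridine, and a further set of factors builds the large subunit. Dividing cells need new ribosomes, so these genes are commonly followed beside proliferation markers.

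The libraries held 141067264 UMIs (PyMT-M) and 116150425 UMIs (PyMT-N). A UMI is a molecular tag that counts 1 captured RNA molecule. Cells with at least 200 detected genes and at most 10% mitochondrial UMIs were kept, 6719 in PyMT-M and 5607 in PyMT-N. Of these, 583 and 1013 met the rule for blood endothelial cells, and 4849 and 3278 met the rule for tumor cells (at least 3 Krt8, Krt18 and Rhox5 UMIs and no Pecam1 or Flt1 UMI), although the labels call both libraries endothelial. A further 721 and 693 cells met no class rule, and 20 barcodes occurred in both libraries. Each class was split by whether a cell had a UMI of Mki67 or Top2a, genes of proliferating cells, and 11 groups of at least 50 cells are described. PyMT-M blood endothelial cells were shallow, with a median of 4529 UMIs without and 7434 with Mki67 or Top2a, against 11886 and 16258 in PyMT-N. Levels are counts per 1000000 UMIs (CPM) over the summed cells of a group. All 95% intervals come from exact Poisson counts and cover counting error only.

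The class labels were checked against other markers. The 9 endothelial markers summed to between 4415 and 6510 CPM in blood endothelial cells, with Cdh5 at 1052 CPM in the PyMT-M cells without Mki67 or Top2a, and to between 12.5 and 40.8 CPM in tumor cells. The 9 tumor epithelial markers summed to 223 and 238 CPM in PyMT-M tumor cells, mostly Wfdc2, and to 2055 and 2247 CPM in PyMT-N tumor cells, mostly Lgals7. Epcam was at 4.25 CPM or less and Krt7, Krt14, Krt19, Cldn3, Cldn4 and Cdh1 at 0.615 CPM or less in every tumor group. These epithelial markers were thus at or near 0, while Wfdc2 (204 and 219 CPM) in PyMT-M and Lgals7 (2025 and 2197 CPM) in PyMT-N were not. The keratins Krt8 and Krt18 belong to the UMI rule itself and were not part of this check. The word tumor stands here for that rule.

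Myc itself stood highest in PyMT-M tumor cells. It was at 159 CPM (95% interval 153 to 166) in those without Mki67 or Top2a and at 136 CPM (134 to 139) in those with. PyMT-N tumor cells had 14.1 CPM (13.1 to 15.1) without and 14.0 CPM (12.3 to 16.0) with these markers. Both PyMT-M tumor groups were above all other groups, and their intervals did not overlap each other or those of any other group.

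In blood endothelial cells of PyMT-M, Myc was at 36.6 CPM (29.2 to 45.3) without Mki67 or Top2a and at 46.8 CPM (34.1 to 62.6) with. The blood endothelial cells of PyMT-N had 10.96 CPM (9.10 to 13.1) and 21.1 CPM (15.9 to 27.5). Ptprc+ cells, leukocytes left after the CD45 depletion, had 32.3 CPM in PyMT-M and 27.6 CPM in PyMT-N, and PyMT-N lymphatic cells had 23.2 CPM. Ordered by level, the intervals of neighbouring groups overlapped from PyMT-M blood endothelial cells with the markers down to PyMT-N blood endothelial cells with them. They overlapped again among the lowest 3 groups, except between PyMT-N tumor and blood endothelial cells without the markers. The interval of PyMT-N blood endothelial cells with the markers also overlapped that of PyMT-N tumor cells with them, which was not its neighbour. The 9 groups of under 50 cells (all fibroblast groups, both lymphatic groups of PyMT-M, and the lymphatic PyMT-N and Ptprc+ groups with the markers) held between 0 and 52 Myc UMIs each and are not described further.

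The other 30 members summed to 7226 CPM in PyMT-M tumor cells without Mki67 or Top2a and 7484 CPM in those with. The sums were 2246 and 2736 CPM in PyMT-N tumor cells. Blood endothelial cells had 2402 and 3905 CPM in PyMT-M and 1808 and 3078 CPM in PyMT-N. Lymphatic cells of PyMT-N had 2138 CPM, and Ptprc+ cells 2292 CPM in PyMT-M and 2239 CPM in PyMT-N. The plot of Myc beside this sum shows the 2 PyMT-M tumor groups far above the rest on both.

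**Figure D1:**
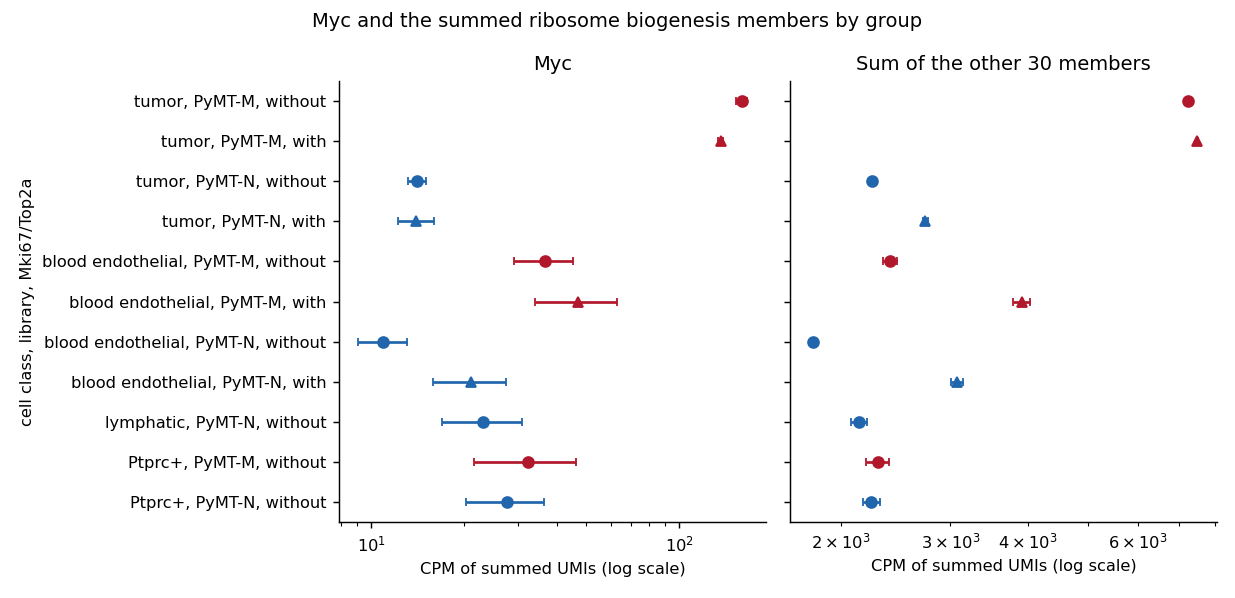
Level of Myc (left) and summed level of the other 30 members (right) in 11 groups of cells, in CPM on log axes, red for PyMT-M and blue for PyMT-N, circles for cells without and triangles for cells with a Mki67 or Top2a UMI, bars for 95% counting intervals. The PyMT-M tumor groups lie at 136 and 159 CPM for Myc and at 7226 and 7484 CPM for the sum, above every other group.

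Npm1 (nucleophosmin) and Ncl (nucleolin), abundant nucleolar proteins, weighed heavily in these sums, and Npm1 alone gave between 33.2% and 48.7% of their UMIs. Npm1 ranged from 647 CPM in PyMT-N blood endothelial cells without Mki67 or Top2a to 3521 CPM in PyMT-M tumor cells without them. Ncl ranged from 277 CPM in PyMT-N tumor cells without the markers to 1187 CPM in PyMT-M tumor cells with them. Npm1 in particular has processed copies elsewhere in the genome, whose reads the counting may have split or dropped, so counts are also given without both genes where it matters. Rrp12 was among the members with the fewest UMIs, between 3.38 and 13.4 CPM. The heatmap of all members by group gives each level.

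**Figure D2:**
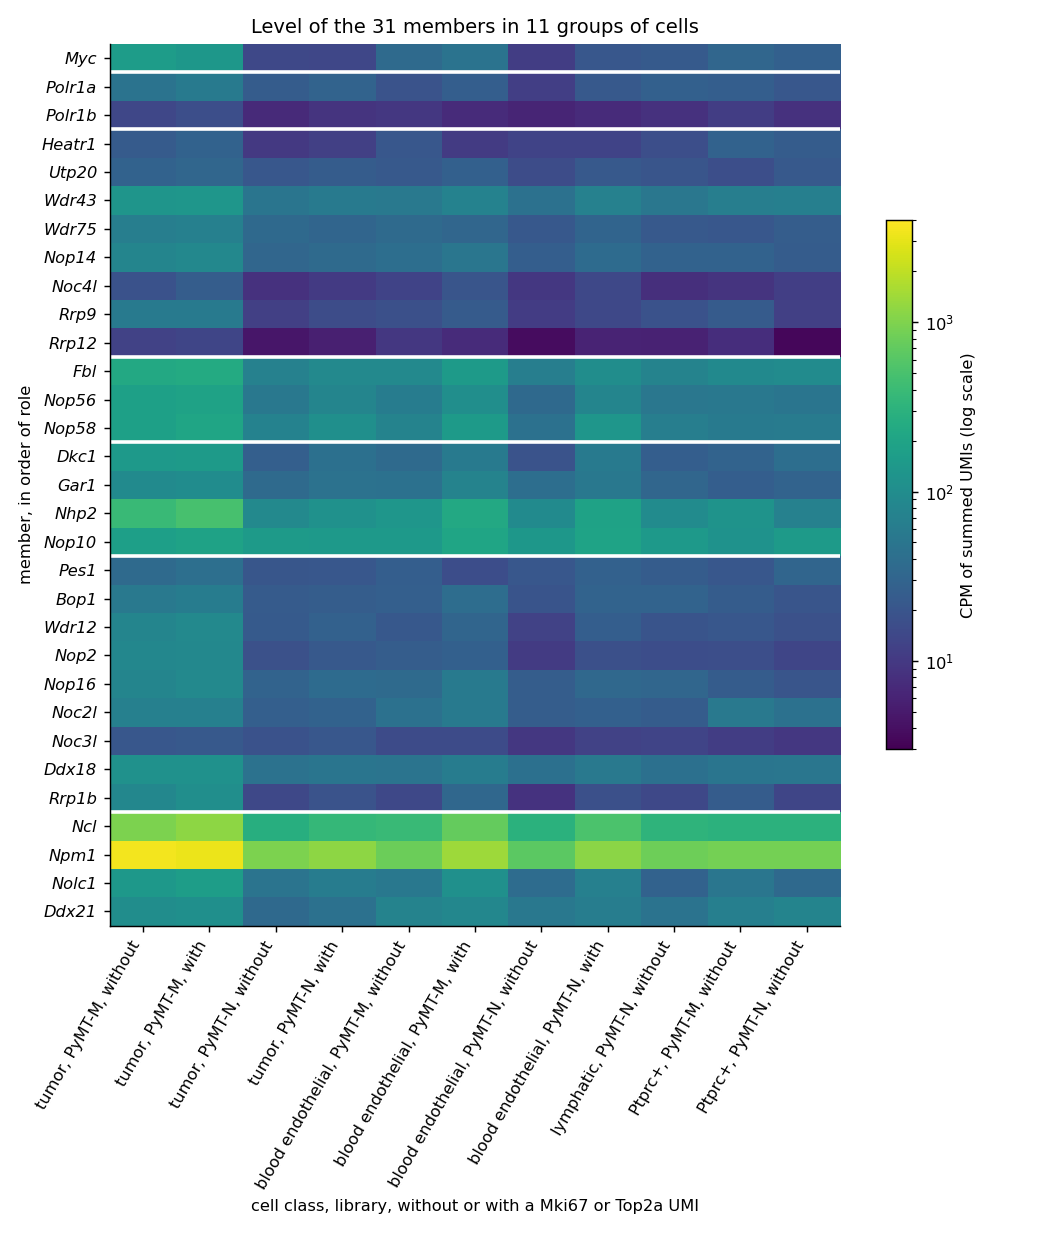
Level of each of the 31 members (rows, ordered by role with white lines between roles) in 11 groups of cells (columns), as CPM of summed UMIs on a log colour scale. The 2 PyMT-M tumor columns are the brightest for most rows, Npm1 reaches 3521 CPM there, and Rrp12 is among the darkest rows at 3.38 to 13.4 CPM.

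The promoters of the members were searched for CACGTG, the E-box that Myc and its partner Max are known to bind, because the members are commonly treated as Myc targets. The search used RefSeq promoters on GRCm38.p6, a build other than the mm39 of the counts, from 250 bases before to 50 bases after each start site. Of the 31 members 26 matched an entry, and Myc, Rrp12, Fbl, Bop1 and Npm1 did not. CACGTG, which reads the same on both strands, occurred in 4 of the 26 (15.4%) and in 23 of 101 other ribosome biogenesis genes (22.8%). Of all 19589 genes of the count table that matched an entry, 1778 (9.08%) held it in at least 1 promoter. The 4 promoters are printed 5′ to 3′ along the strand of the gene, with CACGTG in capitals. Utp20 lies at chr10:88826765-88827064 on the minus strand, Wdr43 at chr17:71615965-71616264, Pes1 at chr11:3963725-3964024 and Nop2 at chr6:125131633-125131932, the last 3 on the plus strand.
Utp20: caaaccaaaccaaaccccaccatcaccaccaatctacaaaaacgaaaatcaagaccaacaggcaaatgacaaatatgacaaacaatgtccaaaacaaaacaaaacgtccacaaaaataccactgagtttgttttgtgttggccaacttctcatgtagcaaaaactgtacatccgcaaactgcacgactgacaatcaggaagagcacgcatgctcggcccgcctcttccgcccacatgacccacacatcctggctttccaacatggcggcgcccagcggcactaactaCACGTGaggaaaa
Wdr43: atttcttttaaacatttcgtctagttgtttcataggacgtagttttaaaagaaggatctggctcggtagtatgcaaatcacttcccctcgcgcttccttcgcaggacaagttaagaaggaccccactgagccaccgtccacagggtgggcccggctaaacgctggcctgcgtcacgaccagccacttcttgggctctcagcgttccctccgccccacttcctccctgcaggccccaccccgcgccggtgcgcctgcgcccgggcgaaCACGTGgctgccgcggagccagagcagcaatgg
Pes1: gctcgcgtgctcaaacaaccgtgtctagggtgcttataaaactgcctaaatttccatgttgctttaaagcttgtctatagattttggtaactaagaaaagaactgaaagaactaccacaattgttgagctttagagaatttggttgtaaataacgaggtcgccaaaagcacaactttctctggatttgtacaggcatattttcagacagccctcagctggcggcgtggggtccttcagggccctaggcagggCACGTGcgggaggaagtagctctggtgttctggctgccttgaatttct
Nop2: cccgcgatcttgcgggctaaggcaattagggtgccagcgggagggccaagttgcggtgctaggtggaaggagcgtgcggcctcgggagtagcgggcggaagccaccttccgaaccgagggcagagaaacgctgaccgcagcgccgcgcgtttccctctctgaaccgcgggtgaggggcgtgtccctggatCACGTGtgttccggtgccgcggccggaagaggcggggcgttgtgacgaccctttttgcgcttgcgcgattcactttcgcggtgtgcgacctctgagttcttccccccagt
The capitals begin 38 bases after the start site in Utp20, 18 after it in Wdr43, 3 after it in Pes1 and 60 before it in Nop2. The related CACGCG, searched on both strands, was in 7 of the 26 members (26.9%), 38 of the 101 other genes (37.6%) and 13.2% of all genes that matched. Pes1 held both sequences and is in both counts. Of 8543 genes with a promoter of at least 60% G or C, 24.2% held CACGCG in such a promoter and 11.6% CACGTG. For CACGCG the members were close to that share, although only 10 of them have such a promoter. These matches describe the letters in a window and are not evidence of binding. The members that hold CACGTG varied in the comparisons that follow, and Pes1 differed in direction between them.

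In blood endothelial cells without Mki67 or Top2a, every member was higher in PyMT-M than in PyMT-N. The log2 ratio of CPM was at least 0.5 (a fold of 1.41) for 18 of the 31 members and at most -0.5 for none, against 13.5% and 12.4% of the 10508 genes whose UMIs in the 2 libraries summed to 50 or more. The median ratio of the members was 0.61, against 0.01 over all these genes. The counting interval lay above 0 for 25 members, a count given without the share of all genes, and such intervals narrow as UMIs rise. Without Npm1 and Ncl the summed ratio of the other 28 was 0.49 (0.43 to 0.55).

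Myc differed most, with 84 UMIs (36.6 CPM) in 460 PyMT-M cells and 122 UMIs (10.96 CPM) in 864 PyMT-N cells, a log2 ratio of 1.74 (1.32 to 2.15). Both RNA polymerase I subunits passed the fold, Polr1a, the catalytic subunit, at 18.7 against 11.5 CPM and a ratio of 0.70 (0.17 to 1.21). Polr1b, the other large subunit, was at 9.58 against 6.29 CPM, and its interval reached below 0 (-0.16 to 1.32). In the small-subunit processome 5 of 8 factors passed. Rrp12, also known for export of both subunits, was at 9.58 against 3.77 CPM on 22 and 42 UMIs, with a ratio of 1.34 (0.53 to 2.12). Heatr1, Wdr75, Rrp9 and Nop14 had ratios between 0.62 and 0.74, and Utp20, Noc4l and Wdr43 between 0.32 and 0.49.

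The snoRNP proteins were uneven. Of the box C/D proteins, the scaffold proteins Nop56 (61.8 against 35.5 CPM) and Nop58 (75.3 against 44.3 CPM) had ratios of 0.80 (0.51 to 1.08) and 0.77 (0.51 to 1.02), and the methyltransferase Fbl had 0.45 (0.22 to 0.68). Of the box H/ACA proteins only Dkc1, the pseudouridine synthase, passed, at 36.1 against 19.1 CPM and a ratio of 0.92 (0.53 to 1.29). Its partners Gar1, at 44.0 against 40.7 CPM, and Nop10, at 146 against 134 CPM, had the 2 lowest ratios of all members, 0.11 (-0.21 to 0.43) and 0.12 (-0.05 to 0.29). Nhp2, the remaining partner, was at 131 against 94.2 CPM.

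Of the large-subunit factors 6 of 9 passed. Nop2, an RNA methyltransferase, was at 24.8 against 10.6 CPM, a ratio of 1.23 (0.74 to 1.70). Wdr12, Noc2l, Rrp1b, Noc3l and Nop16 had ratios from 0.53 to 0.79. Pes1 and Bop1, which form the PeBoW complex with Wdr12, had 0.27 (-0.17 to 0.69) and 0.45 (0.01 to 0.86). The helicase Ddx18, at 47.4 against 42.3 CPM, had 0.17 (-0.15 to 0.47). Among the nucleolar proteins the helicase Ddx21 passed at 0.51 (0.26 to 0.76), Nolc1 lay just under the fold with 0.50 (0.20 to 0.79), and Ncl and Npm1 had 0.40 (0.29 to 0.50) and 0.30 (0.22 to 0.37).

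Several measures differed between these cell pools beside the members. The tumor epithelial markers summed to 9.58 CPM in PyMT-M (5 of 9 at 0) and 14.5 CPM in PyMT-N (6 of 9 at 0), the leukocyte markers to 16.5 and 27.5 CPM, the erythroid markers to 44.0 and 33.0 CPM, and the fibroblast and mural markers to 56.1 CPM (2 of 7 at 0) and 10.4 CPM (1 of 7 at 0). Rgs5, a pericyte gene, was at 37.9 CPM in PyMT-M and 3.14 CPM in PyMT-N. Their part in the result was not tested. Genes at 100 CPM or more in the tumor cells of a library, and at no more than 1% of that level in the endothelial cells of the other, were at a median of 2.99% of their tumor level in PyMT-M endothelial cells (20 genes) and 1.24% in those of PyMT-N (47 genes). This measure was added after the data were seen. With that share taken off, 16 members passed the fold and Myc had a ratio of 1.59. Counted only over the 21 members with at least 200 UMIs, 9 passed. The shares of all genes that passed under these changes are not given.

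In blood endothelial cells with Mki67 or Top2a, 27 members had at least 50 UMIs, and Polr1b, Heatr1, Rrp12 and Noc3l did not. Of the 27, 8 were higher in PyMT-M by the fold and 1 was lower, against 11.8% and 12.5% of 7852 genes, with a median of 0.42 against 0.00. Myc was at 46.8 CPM on 45 UMIs against 21.1 CPM on 55 UMIs, a ratio of 1.15 (0.55 to 1.74). It was followed by Noc2l, a factor of large-subunit export, at 57.2 against 27.2 CPM (1.07, 0.53 to 1.60), and Rrp1b at 33.3 against 17.3 CPM (0.95, 0.24 to 1.63). Nop16, Rrp9, Nolc1, Nop2 and Fbl also passed, between 0.55 and 0.77.

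The lowest member was Pes1, at 16.6 CPM on 16 UMIs against 28.4 CPM on 74 UMIs, a ratio of -0.77 whose interval reached 0.02. Dkc1, at 56.1 against 57.2 CPM, had -0.03 (-0.50 to 0.43), and Wdr43, at 73.8 against 71.0 CPM, had 0.06 (-0.36 to 0.46). The intervals lay above 0 for 11 members and below 0 for none, again without the share of all genes. In these cells the fibroblast and mural markers summed to 146 CPM in PyMT-M and 8.44 CPM in PyMT-N, Rgs5 stood at 81.1 and 3.07 CPM, and the tumor epithelial markers at 40.5 and 10.4 CPM (6 and 7 of 9 at 0). Their part in the result was not tested. The Myc ratio was 0.21 when only cells with at least 3 Mki67 and Top2a UMIs were set as positive, and 3 members of 12 passed the fold after every cell was thinned to 5000 UMIs. The share of all genes that passed after thinning is not given.

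Between the tumor cells of the 2 lines the members differed far more. Of the 31 members 28 were higher in PyMT-M by the fold in cells without Mki67 or Top2a and 28 in cells with, and none was lower. Over all genes 25.4% were higher and 41% lower without these markers, and 32% higher and 32.7% lower with them. The members' medians were 1.38 and 1.28, and the medians of all genes -0.19 and -0.02. PyMT-M tumor cells also carried more ribosomal-protein RNA, 32.8% and 29.2% of their UMIs against 18.5% and 19.2% in PyMT-N. With a total that excluded hemoglobin, ribosomal-protein and mitochondrial genes, the median of all genes moved from -0.19 to 0.07 in cells without the markers, 32.7% of genes were then higher and 33.4% lower, and 29 members passed. In cells with the markers the median of all genes moved from -0.02 to 0.15 and 30 members passed. The share of all genes that passed with this total is not given for these cells, so the 30 cannot be set against the 32%. The 7 fibroblast and mural markers also differed between these tumor cells. Without Mki67 or Top2a they summed to 72.5 CPM in PyMT-M (2 of 7 at 0) and 495 CPM in PyMT-N (none at 0), with Pdgfrb at 31.02 against 255 CPM and Dcn, which encodes decorin, at 0.188 against 87.6 CPM, and with Mki67 or Top2a to 91.7 and 369 CPM. Their part in the result, and that of the tumor epithelial markers given above, was not tested.

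Myc was at 159 against 14.1 CPM in tumor cells without Mki67 or Top2a, a ratio of 3.50 (3.39 to 3.62), and at 136 against 14.0 CPM in those with, a ratio of 3.28 (3.09 to 3.48). Rrp1b, a nucleolar protein of large-subunit assembly, followed with 83.0 against 14.3 CPM without the markers (2.53, 2.41 to 2.66) and 104 against 19.0 CPM with them (2.45, 2.29 to 2.62). Dkc1 was at 144 against 26.2 CPM without them, 2.46 (2.37 to 2.56). Nhp2 was at 491 against 114 CPM with them, 2.10 (2.03 to 2.17). Each of these genes stood higher in PyMT-M than in PyMT-N by more than the median of the members in both states.

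Only Nop10, Noc3l and Utp20 stayed under the fold in both states. Nop10 was at 176 against 153 CPM without Mki67 or Top2a, a ratio of 0.20 (0.14 to 0.26), beside 2.46 for Dkc1, 2.12 for Nhp2 and 1.37 for Gar1 of the same snoRNP. Noc3l, which pairs with Noc2l, was at 21.4 against 18.5 CPM (0.21, 0.03 to 0.39), beside 1.34 (1.23 to 1.46) for Noc2l. Utp20 was at 28.8 against 21.0 CPM (0.46, 0.30 to 0.61). By role, the summed ratios in cells without the markers were 0.92 for RNA polymerase I, 1.26 for the small-subunit processome, 1.58 for box C/D, 1.40 for box H/ACA, 1.50 for large-subunit factors and 1.84 for the nucleolar proteins. The plot of ratios by member shows the tumor values to the right of the blood endothelial ones for most genes.

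**Figure D3:**
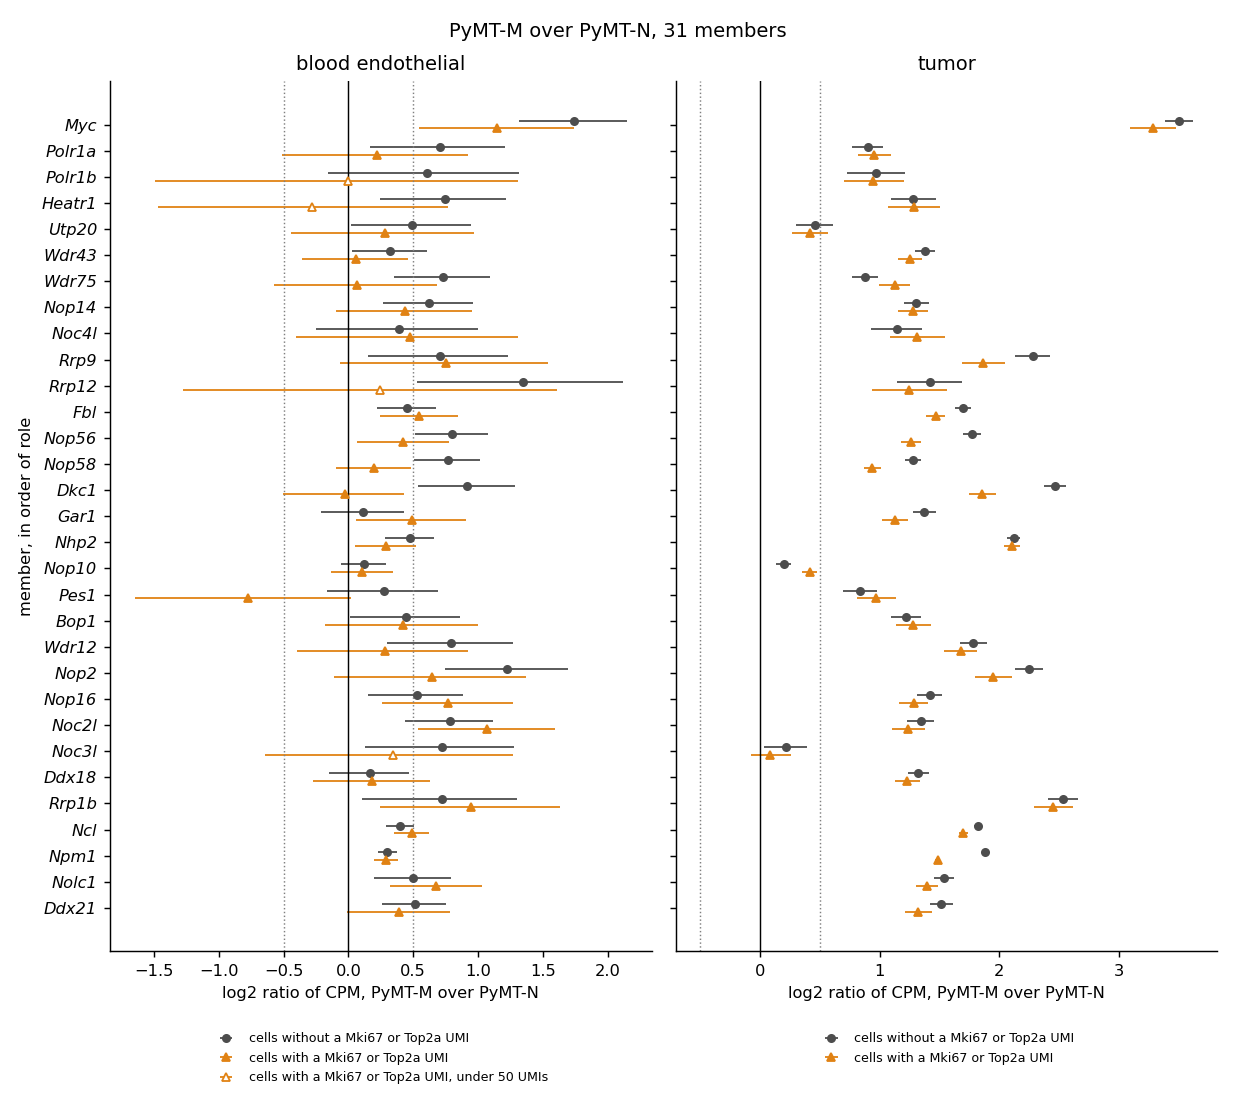
Log2 ratio of CPM, PyMT-M over PyMT-N, for each member (rows) in blood endothelial cells (left) and tumor cells (right), circles for cells without and triangles for cells with a Mki67 or Top2a UMI, open where both libraries together had under 50 UMIs. Bars are 95% counting intervals, dotted lines the fold of 0.5 either way. Myc is the rightmost gene in each series, at 1.74 and 1.15 on the left and 3.50 and 3.28 on the right.

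Within a library, tumor and blood endothelial cells were compared next. In PyMT-M, without Mki67 or Top2a, 25 members were higher in tumor cells by the fold and none lower, against 28.7% and 37.1% of 10821 genes, with a median of 1.21. Rrp1b, at 83.0 against 14.4 CPM, had 2.53 (2.03 to 3.08), Npm1, at 3521 against 797 CPM, had 2.14 (2.08 to 2.21), and Myc had 2.12 (1.81 to 2.46). The lowest were Heatr1, a factor of the processome, at 23.8 against 21.3 CPM (0.16, -0.27 to 0.62), Nop10 at 176 against 146 CPM (0.27, 0.11 to 0.44) and Utp20 at 28.8 against 22.6 CPM (0.35, -0.07 to 0.79). A total without hemoglobin, ribosomal-protein and mitochondrial genes moved the median of all genes from -0.15 to 0.14, raised the share of genes that were higher from 28.7% to 37.6%, and gave 30 members above the fold.

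In PyMT-N, 9 members were higher in tumor cells without the markers and 1 lower, against 28.7% and 28.8% of 13443 genes. The 9 are 29.0% of the members, close to the share of all genes, while the 1 lower member is 3.23%, below it. The median was 0.28 against -0.01 over all genes, and Myc was at 14.1 against 10.96 CPM, a ratio of 0.36 (0.09 to 0.65). Polr1a led at 24.6 against 11.5 CPM (1.10, 0.84 to 1.37), followed by Noc3l (0.96, 0.67 to 1.26) and Wdr12 (0.86, 0.61 to 1.13). Ddx21, at 35.5 against 53.2 CPM, was lower in tumor cells, -0.58 (-0.71 to -0.45), and Heatr1 and Noc4l had -0.38 (-0.65 to -0.10) and -0.20 (-0.51 to 0.11).

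Among cells with Mki67 or Top2a, 24 members were higher in PyMT-M tumor cells than in the blood endothelial cells of that library and none lower (33.2% of genes in each direction), with Nop2 at 86.5 against 27.0 CPM (1.68, 1.13 to 2.29). In PyMT-N only Noc3l was higher in tumor cells, 0.78 (0.25 to 1.35), and 4 members were lower, against 25.8% and 29.4% of genes. The 4 were Nhp2, at 114 against 189 CPM (-0.73, -0.87 to -0.58), Myc, at 14.0 against 21.1 CPM (-0.59, -1.02 to -0.14), Ddx21 (-0.54, -0.78 to -0.28) and Ncl (-0.51, -0.59 to -0.42). The share of cells with a marker UMI differed between the classes: 83.0% of PyMT-M and 17.0% of PyMT-N tumor cells had a Mki67 or Top2a UMI, and 21.1% (17.9 to 24.6) and 14.7% (12.6 to 17.0) of blood endothelial cells. Thinned to 5000 UMIs per cell, the shares were 61.3% and 7.15% of tumor cells and 28.2% and 10.6% of blood endothelial cells. Thinning dropped cells below that depth and kept 301 of 583 PyMT-M and 968 of 1013 PyMT-N blood endothelial cells. In PyMT-M it kept 97 of 123 cells with a marker UMI and 204 of 460 without, so the thinned shares describe the deeper cells. In Ptprc+ cells the shares were 7.71% of 441 and 16.5% of 278 before thinning, and 38.8% (of 49 cells) and 15.5% after. A share expected from free tumor RNA was computed after the data were seen, from the Mki67 and Top2a level of tumor cells (318 and 48.2 CPM) and the tumor RNA share of endothelial cells. At 5000 UMIs it was between 4.65% and 5.52% of PyMT-M and between 0.160% and 0.299% of PyMT-N blood endothelial cells. The measured shares were 28.2% and 10.6%. The computation spread 1 median share evenly over all cells (quartiles 1.20% and 6.94% over genes in PyMT-M cells with the markers). Doublets were not removed, and unevenly spread tumor RNA was not tested. A single UMI does not show that a cell was dividing. These shares follow a sort for CD31 and CD144 and are not those of the tumor.

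Cells with a Mki67 or Top2a UMI were then set against cells without, inside each class and library. In PyMT-N blood endothelial cells 19 of 31 members were higher in cells with the markers and none lower, against 14.1% and 13.7% of 10660 genes, with a median of 0.60 against -0.01. Dkc1 was at 57.2 against 19.1 CPM (1.58, 1.27 to 1.89), Nop58 at 132 against 44.3 CPM (1.57, 1.37 to 1.77) and Nop56 at 79.0 against 35.5 CPM (1.16, 0.91 to 1.40). All 3 box C/D proteins passed. Myc was at 21.1 against 10.96 CPM, 0.95 (0.46 to 1.42), and had 0.10 after thinning. That thinned ratio rests on 1 random draw and has no interval. In the bins of thinned cells described below, Myc was at 11.3 CPM with 0 Mki67 and Top2a UMIs. With 1, 2 to 4 and 5 or more it was at 24.4, 25.8 and 12.9 CPM, with intervals that all overlapped. With the tumor RNA share taken off, 20 members passed, a count given without the share of all genes. The erythroid markers summed to 0.384 CPM with and 33.0 CPM without Mki67 or Top2a, the tumor epithelial markers to 10.4 and 14.5 CPM and the fibroblast and mural markers to 8.44 and 10.4 CPM. The lowest members were Heatr1 (-0.01, -0.60 to 0.54), Noc2l (0.11, -0.29 to 0.49) and Polr1b (0.21, -0.60 to 0.96).

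In PyMT-M blood endothelial cells 14 members were higher in cells with the markers and 2 lower, against 13.5% and 13.6% of 7581 genes, with a median of 0.49. Polr1b, Noc4l and Rrp12 had under 50 UMIs. Rrp1b was at 33.3 against 14.4 CPM (1.21, 0.46 to 1.96), Nolc1, a chaperone of snoRNPs, at 111 against 54.0 CPM (1.04, 0.66 to 1.43) and Nop58 at 151 against 75.3 CPM (1.00, 0.67 to 1.33). Heatr1 was lower, at 10.4 CPM on 10 UMIs against 21.3 CPM on 49 UMIs (-1.04, -2.18 to -0.04), and Pes1 was at 16.6 against 25.7 CPM (-0.63, -1.52 to 0.19). Wdr75 had -0.16 (-0.81 to 0.45). Myc, at 46.8 against 36.6 CPM, had 0.36 (-0.20 to 0.89). It had -0.33 after thinning, on 1 random draw, and -0.59 when at least 3 UMIs were asked for, both given without an interval. In the bins of thinned cells described below, Myc was at 45.9 CPM with 0 Mki67 and Top2a UMIs. With 1, 2 to 4 and 5 or more it was at 76.2, 45.2 and 25.8 CPM. All 4 box H/ACA and all 3 box C/D proteins passed in these cells, and none of the 6 measured processome factors was higher by the fold. Markers of other cells differed in the same split. The tumor epithelial markers summed to 40.5 CPM with Mki67 or Top2a and 9.58 CPM without (6 and 5 of 9 at 0), with Wfdc2 at 34.3 against 7.83 CPM. The fibroblast and mural markers summed to 146 and 56.1 CPM, with Rgs5 at 81.1 against 37.9 CPM, and the erythroid markers to 0 and 44.0 CPM. With the median tumor RNA share taken off (3.57% with and 2.99% without), 14 members passed as before and Myc had 0.41. The share of all genes that then passed is not given. The quartiles of that share over genes were 1.20% and 6.94% with and 1.87% and 3.63% without. Wfdc2, at 34.3 CPM with the markers, was at 219 CPM in PyMT-M tumor cells with them. A share larger than the median was not tested. The part of the fibroblast, mural and erythroid markers was not tested.

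Tumor cells showed smaller differences. In PyMT-N tumor cells 3 members were higher with the markers, Dkc1 at 42.2 against 26.2 CPM (0.69, 0.56 to 0.82), Nop56 at 79.4 against 53.1 CPM (0.58, 0.49 to 0.67) and Nop58 at 109 against 73.9 CPM (0.56, 0.48 to 0.64), and none was lower, against 7.59% and 5.09% of 12987 genes. The median was 0.28, and Myc had -0.01 (-0.23 to 0.21). The lowest were Wdr75 (-0.16, -0.30 to -0.02) and Nop10 (-0.10, -0.17 to -0.04). That count depended on how proliferating cells were called: 17 members passed when at least 3 UMIs were asked for, 10 after thinning, and 0 without the 10% deepest cells. The share of all genes under these settings is not given, so these counts cannot be set against the 7.59%.

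In PyMT-M tumor cells no member passed in either direction, against 10.9% and 4.95% of 12883 genes, and the median of 0.11 was that of all genes. The values ran from -0.23 (-0.29 to -0.17) for Myc to 0.45 (0.27 to 0.63) for Noc4l. Nhp2 had 0.33 (0.30 to 0.37), Rrp1b 0.32 (0.24 to 0.40) and Npm1 -0.11 (-0.13 to -0.10). Most PyMT-M tumor cells had the markers, 4027 of 4849, so that the cells without them were the minority.

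**Figure D4:**
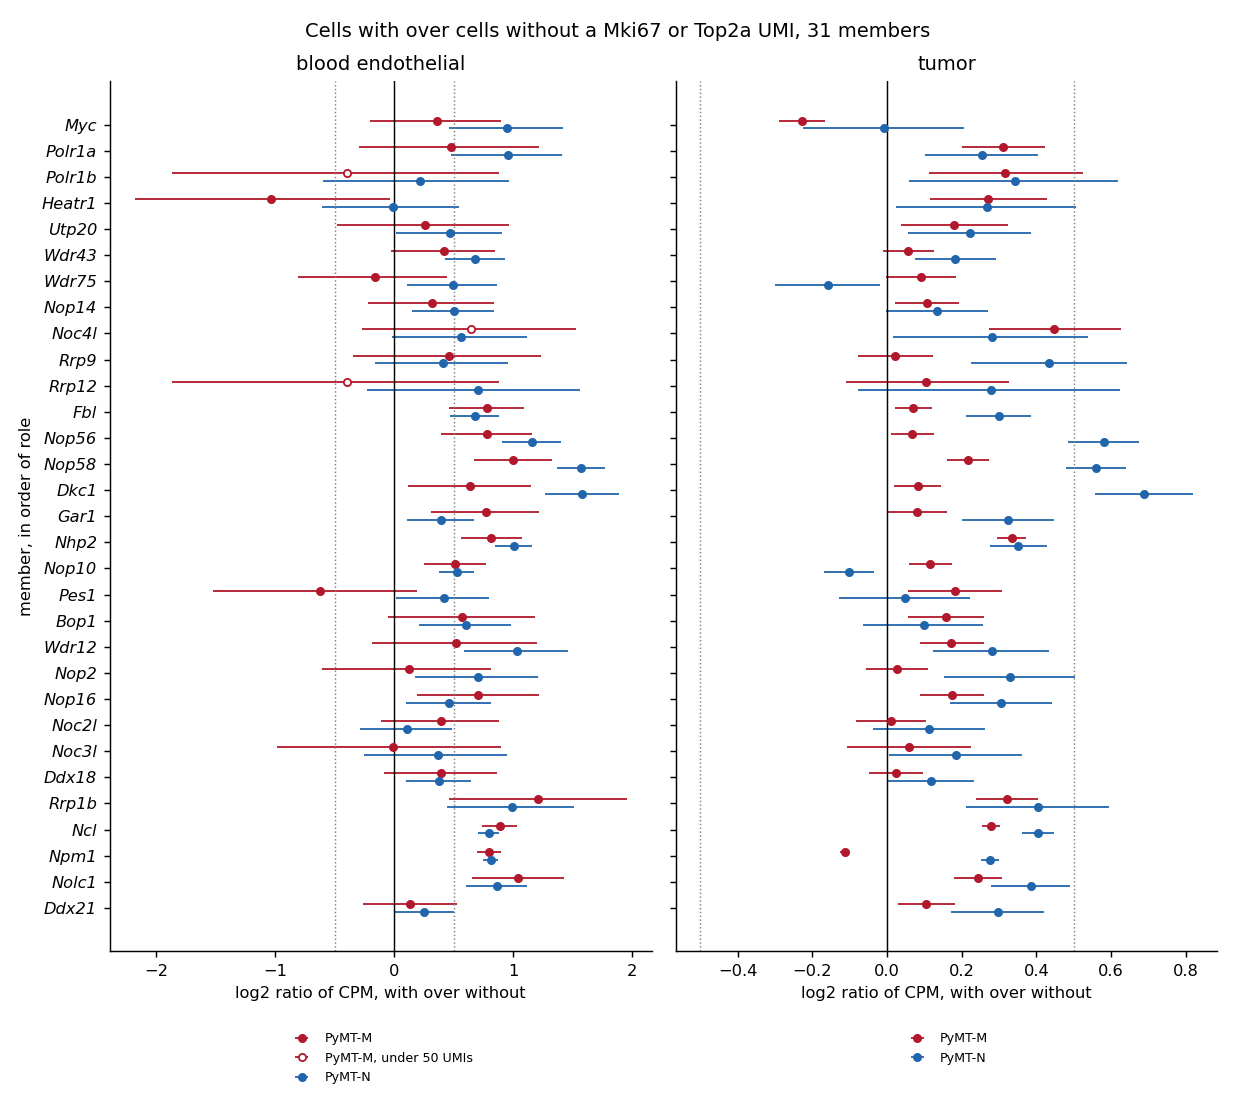
Log2 ratio of CPM, cells with over cells without a Mki67 or Top2a UMI, for each member (rows) in blood endothelial cells (left) and tumor cells (right), red for PyMT-M and blue for PyMT-N, open where a comparison had under 50 UMIs. Bars are 95% counting intervals and dotted lines the fold of 0.5 either way. The tumor values lie between -0.23 and 0.69, and the blood endothelial values reach 1.58.

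Levels by the number of Mki67 and Top2a UMIs per cell, after thinning every cell to 5000 UMIs, were read in 4 bins that were chosen after the data were seen. In PyMT-N blood endothelial cells the other 30 members summed to 1821 CPM with 0 of these UMIs, 2815 with 1, 3303 with 2 to 4 and 2735 with 5 or more. PyMT-M blood endothelial cells had 2675, 3505, 4361 and 3297 CPM in the same bins. In both libraries the bin of 2 to 4 UMIs was the highest, on 31 cells in each case. In PyMT-N its counting interval (3023 to 3602) overlapped that of the bin of 1 UMI (2590 to 3054), and the spread between cells is left out. Myc had 45.9, 76.2, 45.2 and 25.8 CPM over the bins in PyMT-M blood endothelial cells, with intervals that all overlapped. PyMT-N tumor cells had 2220, 2363, 3244 and 3069 CPM. PyMT-M tumor cells had 7313, 7503, 7367 and 7122 CPM, so that their lowest bin was above the highest bin of the other 3 series. Myc ran from 156 CPM (148 to 164) to 124 CPM (108 to 142) over the bins in PyMT-M tumor cells.

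**Figure D5:**
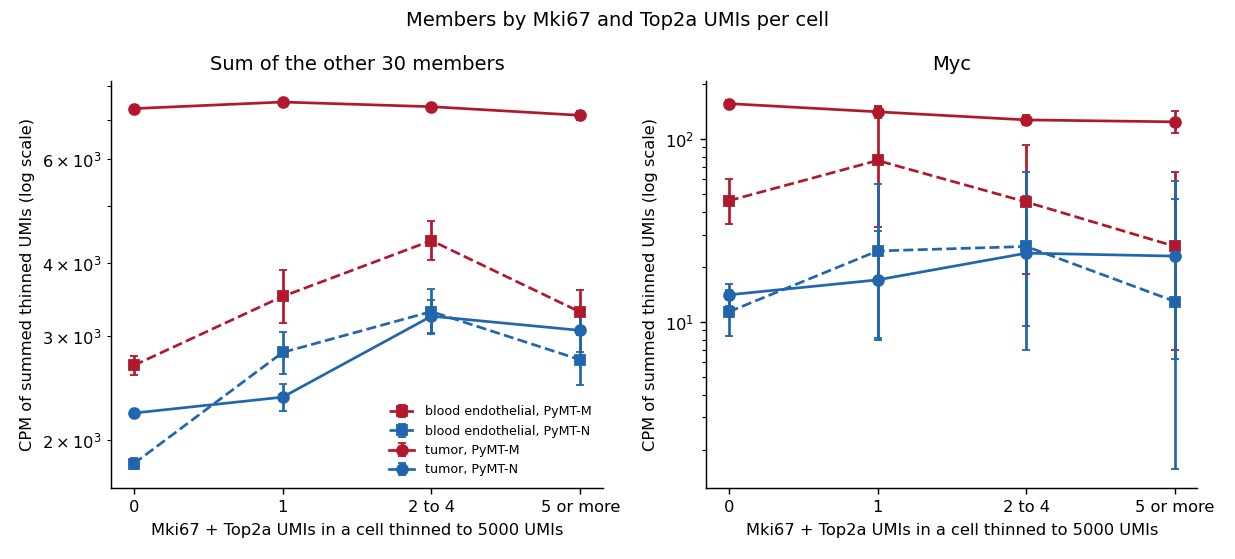
Summed level of the other 30 members (left) and level of Myc (right), in CPM on log axes, by the number of Mki67 and Top2a UMIs in a cell thinned to 5000 UMIs, solid lines for tumor and dashed for blood endothelial cells, red for PyMT-M and blue for PyMT-N, bars for 95% counting intervals. The sum peaks in the bin of 2 to 4 UMIs in both blood endothelial series, at 4361 and 3303 CPM, and stays between 7122 and 7503 CPM in PyMT-M tumor cells.

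Lymphatic and Ptprc+ cells gave further reference levels. In PyMT-N cells without Mki67 or Top2a, 10 members were higher in lymphatic than in blood endothelial cells by the fold and none lower, against 22.8% and 17% of 10681 genes, with a median of 0.34 against 0.12. Polr1a (27.6 against 11.5 CPM; 1.26, 0.78 to 1.73), Myc (1.08, 0.56 to 1.58) and Rrp9 (0.77, 0.20 to 1.31) led, and Nolc1 had the lowest ratio, -0.39 (-0.81 to 0.00). The tumor epithelial markers summed to 171 CPM in the lymphatic cells (6 of 9 at 0, Lgals7 at 163 CPM) and 14.5 CPM in the blood endothelial cells, and the fibroblast and mural markers to 154 CPM (2 of 7 at 0, Dcn at 117 CPM) and 10.4 CPM. Their part in the result was not tested.

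Ptprc+ cells of PyMT-N had 11 members above blood endothelial cells by the fold and none below, against 25.4% and 35.3% of genes, led by Myc (1.33, 0.82 to 1.82), Dkc1 (1.06, 0.65 to 1.46) and Heatr1 (0.92, 0.40 to 1.43). In these Ptprc+ cells the tumor epithelial markers summed to 355 CPM (4 of 9 at 0, Lgals7 at 335 CPM), the fibroblast and mural markers to 93.99 CPM (2 of 7 at 0, Pdgfrb at 59.1 CPM) and the erythroid markers to 126 CPM, all above the blood endothelial cells, and their part was not tested. In PyMT-M the same comparison gave 1 member above and 4 below of 27 measured, against 23.6% and 37.5% of genes, and the median of -0.18 was close to the -0.19 of all genes. The lowest there were Gar1 at 25.6 against 44.0 CPM (-0.78, -1.50 to -0.12) and Wdr75 at 21.1 against 36.1 CPM (-0.77, -1.58 to -0.04), while Myc had -0.18 (-0.84 to 0.44). The PyMT-M Ptprc+ cells held 23.4 CPM of the tumor epithelial and 7.79 CPM of the fibroblast and mural markers.

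Between the Ptprc+ cells of the 2 libraries, 2 of 24 measured members were higher in PyMT-M and 1 lower, against 15% and 14.9% of 6844 genes, and the median was 0.00. Nhp2 was at 120 against 71.5 CPM (0.75, 0.37 to 1.13), Nolc1 at 51.2 against 35.5 CPM (0.53, -0.05 to 1.10) and Pes1 at 21.1 against 31.5 CPM (-0.58, -1.41 to 0.20). Myc was at 32.3 against 27.6 CPM, 0.23 (-0.49 to 0.92). Ptprc+ cells were shallow, at 1533 UMIs per cell (median) for PyMT-M against 4579.5 for PyMT-N.

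Myc was also read cell by cell. After thinning to 5000 UMIs, 48.7% and 45.8% of PyMT-M tumor cells without and with Mki67 or Top2a had a Myc UMI, against 5.89% and 6.81% of PyMT-N tumor cells. In blood endothelial cells the shares were 16.2% (11.4 to 22.0) and 21.6% (13.9 to 31.2) in PyMT-M and 4.27% (2.99 to 5.89) and 9.46% (5.27 to 15.4) in PyMT-N. Unthinned, they were 84.3% and 88.3%, 22.7% and 28.0%, 14.3% and 28.5%, and 13.1% and 25.5% in the same order. Thinning left out 256 of 460 PyMT-M blood endothelial cells without the markers, as too shallow, and 44 of 864 in PyMT-N. No class here is sure to lack Myc, and the share of cells to which free RNA gives a Myc UMI was not measured. The tumor RNA share was taken off summed levels only. There the Myc ratio of PyMT-M over PyMT-N went from 1.74 to 1.59 in blood endothelial cells without the markers.

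Cells with a Myc UMI were set against the other cells of their group for the sum of the other 30 members. In PyMT-M blood endothelial cells without Mki67 or Top2a the sum was 2939 CPM in 33 cells with a Myc UMI and 2489 CPM in the others, a log2 ratio of 0.24 (0.09 to 0.38), and in those with the markers the ratio was 0.17 (0.02 to 0.32). PyMT-M tumor cells had 0.11 (0.08 to 0.15) and 0.02 (0.00 to 0.03). PyMT-N blood endothelial cells without the markers had 0.15 (-0.01 to 0.31), and PyMT-N tumor cells had 0.02 (-0.05 to 0.09) and -0.08 (-0.22 to 0.05). The interval lay above 0 in 4 of the 7 groups with at least 20 cells on each side, all 4 of PyMT-M, and in no PyMT-N group. This count also follows the number of cells. The ratio of 0.02 rested on 1842 cells with a Myc UMI in PyMT-M tumor cells with the markers. In PyMT-N tumor cells without them the same ratio rested on 160. The intervals leave out the spread between cells, so the count does not show a difference between the libraries. In the median cell of 5000 UMIs the 30 members held 35 and 36 UMIs in PyMT-M tumor cells, 11 and 12 in PyMT-N tumor cells, 11 and 19 in blood endothelial cells of PyMT-M, and 8 and 13 in those of PyMT-N.

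Across the 11 groups, the log2 CPM (CPM plus 1 for single genes) of the sum of the other 30 members followed that of Myc with a Pearson correlation of 0.90. The groups come from 2 libraries and differ in depth, so this is a description. Their median UMIs per cell ran from 1533 in PyMT-M Ptprc+ cells without the markers to 26532.5 in PyMT-N tumor cells with them. Rrp9, Fbl and Wdr43 were most like Myc, each at 0.94, and Nop10 and Noc3l least, each at 0.51. Without the 2 PyMT-M tumor groups the correlation of the sum was 0.54 over 9 groups, so that the value depends on those groups. Noc2l (0.84), Ddx21 (0.80) and Fbl (0.76) were then the highest, and Noc3l (-0.06) and Pes1 (-0.02) the lowest.

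The wider pathway was read from 123 other genes in 4 lists, chosen like the members with earlier results known. In blood endothelial cells without Mki67 or Top2a, 29 of the 123 were higher in PyMT-M by the fold and 2 lower, against 13.5% and 12.4% of all genes, with a median of 0.29 against 0.01. Among 19 genes of RNA polymerase I and its factors 2 were higher and 1 lower, no more than the share of all genes, from Mybbp1a (0.68, 0.38 to 0.97) to the shared polymerase subunit Polr2l (-0.61, -0.91 to -0.32). Of 48 small-subunit factors 9 were higher and none lower, led by Nol6 (0.89, 0.30 to 1.46) and Nat10, an RNA acetyltransferase (0.83, 0.30 to 1.34). Of 47 large-subunit factors 16 were higher, led by Tma16 (1.09, 0.64 to 1.53) and nucleostemin, Gnl3 (0.92, 0.59 to 1.24), and Gnl3l was lower (-0.59, -1.03 to -0.18). Of 9 snoRNP assembly factors 2 were higher, Ruvbl1 (0.66, 0.34 to 0.97) and Naf1 (0.59, 0.16 to 1.01).

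In tumor cells without the markers 89 of the 123 were higher in PyMT-M and 3 lower, against 25.4% and 41% of all genes, with a median of 0.79 against -0.19. Naf1 (2.35, 2.23 to 2.47), Rrs1 (2.16, 2.06 to 2.26) and Tma16 (2.16, 2.04 to 2.27) were highest, and Polr2l (-2.33, -2.44 to -2.23) and Gnl3l (-1.58, -1.83 to -1.35) lowest. Set by with over without Mki67 or Top2a, 37 of 106 measured genes were higher in PyMT-M and 44 of 123 in PyMT-N blood endothelial cells, against 13.5% and 14.1% of all genes. In the tumor cells of each library 3 of 123 were higher, a smaller share than the 10.9% (PyMT-M) and 7.59% (PyMT-N) of all genes. Lyar, a nucleolar protein, was among the highest small-subunit genes in 3 of these 4 comparisons, at 0.92 (0.58 to 1.27), 1.10 (0.86 to 1.33) and, in PyMT-N tumor cells, 0.75 (0.65 to 0.86).

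The partners and antagonists of Myc, a network of 10 related factors, were read beside it, and 7 had enough UMIs in blood endothelial cells without the markers. None of the 7 was higher in PyMT-M by the fold and 1, Mxd1, was lower, against 13.5% and 12.4% of all genes. The partner Max had -0.01 (-0.35 to 0.31), and the antagonists Mxd4 and Mxd1 had -0.40 (-0.58 to -0.23) and -0.88 (-1.83 to -0.05). In tumor cells without the markers 2 of 9 measured were higher and 3 lower, near the 25.4% and 41% of all genes: Mxd3 had 3.64 (2.79 to 4.58) and Mlx 0.76 (0.61 to 0.91), and Mxd4 and Mxd1 had -1.13 (-1.27 to -0.99) and -1.58 (-2.06 to -1.14). Mxd4 was also lower in cells with Mki67 or Top2a, at -1.49 (-1.96 to -1.04) in PyMT-M and -1.23 (-1.45 to -1.02) in PyMT-N blood endothelial cells. Mxd3 was higher in them, with 5.20 (4.43 to 6.07) in PyMT-N and 2.39 (1.99 to 2.82) in PyMT-M tumor cells.

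Of 16 genes commonly listed as Myc targets outside the ribosome, 4 were higher in PyMT-M blood endothelial cells without the markers and none lower, against 13.5% and 12.4% of all genes, with a median of 0.41. Ccnd2, which encodes cyclin D2, had 3.18 (2.78 to 3.58) and Shmt2, a mitochondrial enzyme of folate metabolism, 1.35 (0.83 to 1.85), while Cdk4 had -0.10 (-0.31 to 0.11). In tumor cells without the markers 14 of the 16 were higher and none lower, against 25.4% and 41% of all genes, led by Shmt2 (3.04, 2.90 to 3.18) and Srm, a polyamine synthase (2.68, 2.61 to 2.76), and Cdk4 had 0.03 (-0.03 to 0.09).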

How the data were processed

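Per gene and cell, the authors deposited raw UMI counts of 2 libraries, made with Cell Ranger 8.0.0 on mm39 per the submitters' processing notes. Kept cells were put in classes by UMI rules on a few markers each, and cells that met any other 2 rules were left out. Blood endothelial cells had at least 5 UMIs of Pecam1, Flt1, Emcn and Kdr and at most 1 of Krt8, Krt18 and Rhox5. Lymphatic cells, taken first, had at least 3 of Prox1, Mmrn1 and Reln, fibroblasts at least 3000 CPM of Col3a1, and Ptprc+ cells at least 1 Ptprc UMI. Doublets were not called or removed. Counts were summed per class and library. A gene needed 50 UMIs over both sides, and its ratio has an exact Poisson interval. With 1 library per condition there was no test. Named genes were Myc and the 3 members with the highest and the lowest ratios, others being added to describe each role, and 2 high and 2 low genes of each other list. The members and lists were chosen with earlier results of these data known. Scripts (pandas 2.3.3, scipy 1.17.1 and numpy 2.4.6 under Python 3.11.15) were tested on simulated data. Alternatives changed the class overlap, mitochondrial limit, total, depth, proliferation call and UMI minimum.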

Additional observations from a re-analysis of the deposited data

Results flagged for a closer look

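In 4 cases the same contrast pointed in opposite directions in 2 settings, each beyond the fold of 0.5. These differences rest on 1 library per condition and were not tested. Pes1, a large-subunit assembly factor, stood at -0.77 (log2 ratio, PyMT-M over PyMT-N) in blood endothelial cells with Mki67 or Top2a, on 16 and 74 UMIs, and at 0.97 in tumor cells with these markers. The counting interval of the value of -0.77 reached above 0. Myc had a log2 ratio of tumor over blood endothelial cells, both with the markers, of 1.54 in PyMT-M and -0.59 in PyMT-N. Nhp2, of the box H/ACA snoRNP, had 1.09 and -0.73 in that contrast, and Ncl had 0.70 and -0.51.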

How the results depend on the processing

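Over the alternatives 169 recomputed counts stayed within 1.5 times the reported count and 13 did not. The 169 include reported counts of 0 that stayed at 0. Except where printed, the share of all genes under an alternative is not given, and those counts cannot be set against the main shares. Single values were recomputed only for Myc and the 3 highest and 3 lowest members of the main comparisons, at most 63 per alternative. Of these values 584 stayed within their counting interval and 85 left it, and none past the fold changed its direction. The number of members higher in PyMT-M in blood endothelial cells without Mki67 or Top2a (18) became 9 with at least 200 UMIs per gene. In those with the markers the 8 higher members became 3 after thinning, 4 when at least 3 UMIs marked proliferation, 5 without the 10% deepest cells and 2 with at least 200 UMIs, and the 1 lower became 2 when cells of several classes were kept, 2 without the deepest cells and 0 with at least 200 UMIs. The 14 members higher with the markers in PyMT-M blood endothelial cells became 8 after thinning and 8 with at least 200 UMIs. The 3 in PyMT-N tumor cells became 10 after thinning, 17 with at least 3 UMIs and 0 without the deepest cells. Fewer members passed the minimum in the thinned and 200-UMI counts of blood endothelial cells. The cause of these changes, of which some were rises, was not tested. The Myc ratio of PyMT-M over PyMT-N ran from 1.41 to 1.81 in blood endothelial cells without the markers, from 0.21 to 1.49 in those with them, and from 2.85 to 3.76 in tumor cells. The comparison of cells with and without a Myc UMI was not run with another total, since every cell was thinned to 1 depth. No paired analysis was possible because each condition has 1 library, and none could be left out. Shallow PyMT-M endothelial cells limit genes with few UMIs.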
